A study of Mus musculus with 8 samples.

Results

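The 9 genes described here belong to the vascular endothelial growth factor (VEGF) family and to angiogenesis, the growth of new blood vessels. They are the ligand genes Vegfa, Vegfb and Pgf, the receptor and co-receptor genes Flt1, Nrp1, Nrp2 and Eng, the inhibitor gene Thbs1 and the adhesion gene Pecam1. Each was found by its symbol in the annotation of the array platform, and all 9 were measured, each by 1 probe set, among 18782 genes tested. They were followed in macrophages sorted from mouse lungs (C57BL/6 background), on 8 Affymetrix arrays in 4 groups of 2, each array holding the pooled cells of 2 mice. At day 11 after birth, the groups were cells labelled alveolar macrophages (AM) from CD11c-cre/PPARg fl/fl mice (knockouts) and from PPARg fl/fl mice (controls). At day 2 they were the precursors called pre-AM from the same 2 genotypes. All groups thus carried the loxP-flanked Pparg gene. The Cre transgene acts under the CD11c promoter, in cells that express CD11c. At day 11 the sort took cells low in CD11b from controls and cells high in CD11b from knockouts. At day 2 it took either cells intermediate in Siglec-F and CD11b or cells low in Siglec-F and high in CD11b. At day 11 genotype and sort gate therefore cannot be told apart, and how the 2 gates of day 2 fell on the genotypes is not stated in the sources used here. Itgam, which encodes CD11b, read 10.86 and 10.66 in day 11 knockouts, against 6.22 and 6.32 in day 11 controls, and 10.98 and 10.78 in day 2 knockouts, against 7.87 and 7.79 in day 2 controls. Siglecf read 8.73 and 8.85 in day 11 knockouts, against 10.90 and 10.73 in day 11 controls, and 7.13 and 7.46 in day 2 knockouts, against 9.85 and 9.90 in day 2 controls. The genes of both gate proteins thus separated the genotypes at both ages.

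VEGF ligands bind receptor tyrosine kinases on endothelial cells and drive vessel growth. VEGF-A signals mainly through the receptor encoded by Kdr, while FLT1 binds VEGF-A, VEGF-B and placental growth factor and is also carried by monocytes and macrophages. Neuropilins are co-receptors for VEGF and for semaphorins, endoglin is a co-receptor for BMP and TGF-β ligands, and thrombospondin 1 restrains vessel growth and activates latent TGF-β. PECAM-1 is found on endothelium, platelets and several kinds of leukocyte. Macrophages are a known source of VEGF-A in tissues, and PPARγ, the nuclear receptor deleted here, is required for alveolar macrophages to mature.

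The arrays share 1 distribution with a median log2 signal of 5.35, so a shift of all genes together cannot be seen, and the files give no detection calls. The probe set for Pparg read 11.32 and 11.36 in day 11 knockouts, against 11.18 and 11.13 in day 11 controls, and 10.55 and 10.74 in day 2 knockouts, against 10.89 and 11.01 in day 2 controls. The position of its probes relative to the deleted part is not stated in the sources used here, so it does not check the labels. The mean signal of 18 alveolar macrophage markers was 9.27 and 9.32 in day 11 knockouts, 10.88 and 10.85 in day 11 controls, 8.42 and 8.69 in day 2 knockouts, and 10.07 and 10.13 in day 2 controls. This list holds the gate gene Siglecf, the deleted gene Pparg and Itgax, the gene of CD11c, so it is not independent of the design. Knockout day 2 replicate 1 stood apart in 10 interferon-induced genes, with a mean signal of 9.08 against 5.42 in the other day 2 knockout and 4.60 to 5.34 in the other 6 arrays. Signals of Xist and the Y-linked gene Eif2s3y pointed to mice of one sex in 3 pools (knockout day 11 replicate 1, knockout day 2 replicate 1 and control day 2 replicate 2). Without these 3 pools, calls were lost for Eng and Nrp2 at day 11 (adjusted p = 0.0771 and 0.0554), Vegfb at day 2 (0.196) and the interactions of Eng and Vegfb (0.051 and 0.163). Calls between ages were lost for Vegfb in knockouts (0.0542) and for Nrp1 in knockouts and controls (0.051 and 0.071).

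In the knockouts, Vegfa and Thbs1 were higher than in controls at both ages, Eng was higher at both ages with a larger difference at day 2, and Pgf was lower at day 11 but higher at day 2. Pecam1 and Flt1 were called as higher at day 2 only, and the test of the difference between ages was passed by Pecam1 but not by Flt1. The threshold for a call was a limma p-value of 0.05 after Benjamini-Hochberg adjustment over the 18782 genes. At day 11, 5 of 9 genes were called, where 18.6% of all genes were called. Of these 5, 4 were higher and 1 lower, beside 9.34% and 9.29% of all genes. At day 2, 7 of 9 were called, where 20.1% of all genes were called. Of these 7, 6 were higher and 1 lower, beside 8.86% and 11.2% of all genes. Knockout and control arrays did not overlap for 7 of 9 genes at day 11 and 8 of 9 at day 2, as for 56.3% and 58.2% of all genes, so a gap between arrays is no result in itself. The median log2 difference of the 9 was 0.39 at day 11 and 0.98 at day 2, beside -0.00 and -0.03 over all genes. The day 11 count rested on single arrays: it was 2 without control replicate 1 or without knockout replicate 1, and 3 without control replicate 2. The plot of signals by array shows the values and the plot of genotype differences shows their errors.

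**Figure D1:**
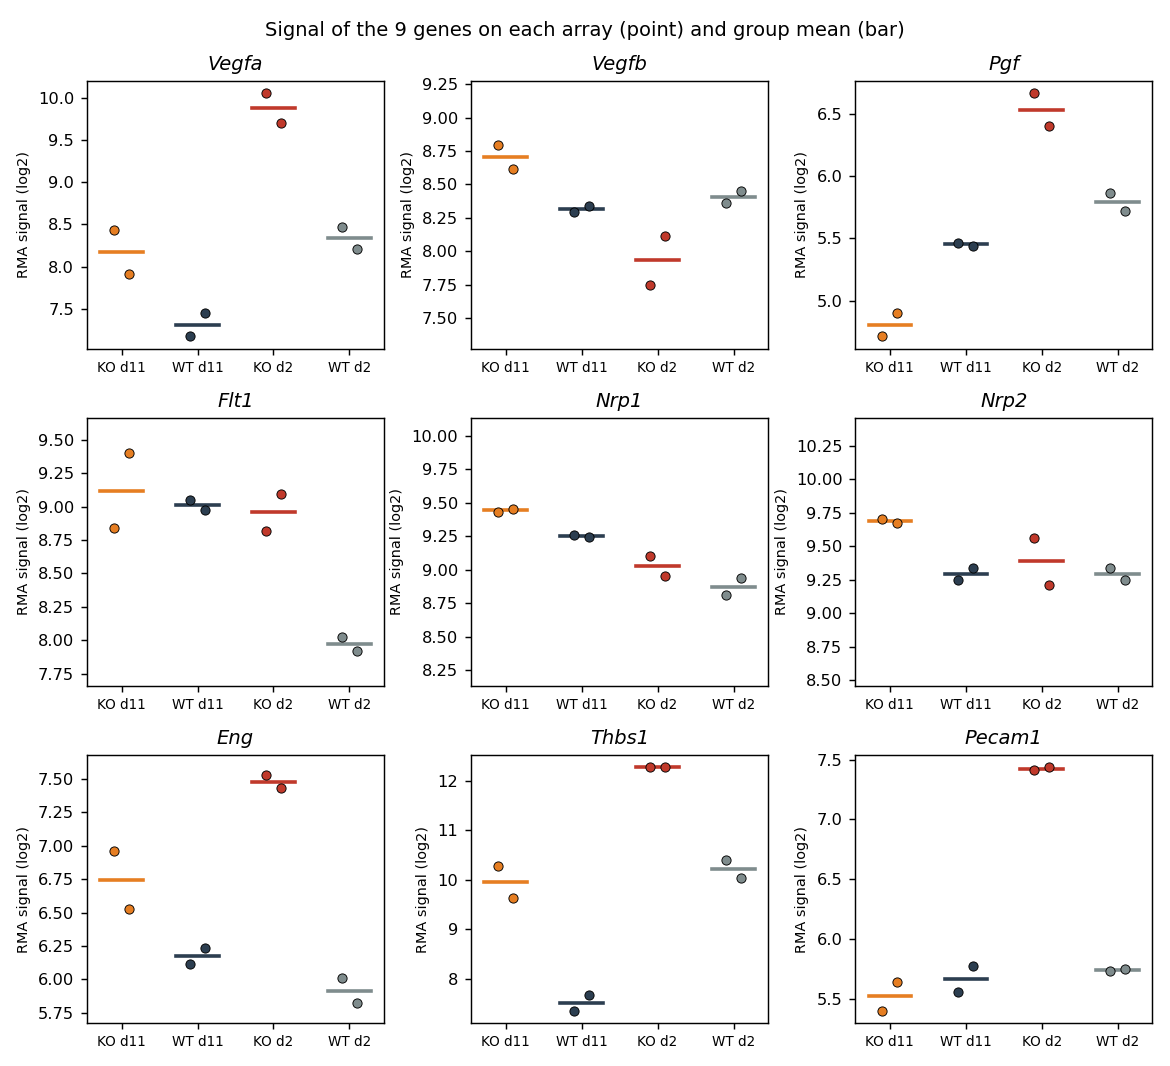
Log2 RMA signal (y axis) of each of the 9 genes in day 11 knockouts (KO d11), day 11 controls (WT d11), day 2 knockouts (KO d2) and day 2 controls (WT d2); each point is 1 array, each bar the mean of 2, and each panel spans at least 2 log2 units. The day 2 knockouts stand highest of the 4 groups for Vegfa, Pgf, Eng, Thbs1 and Pecam1 and lowest for Vegfb.

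**Figure D2:**
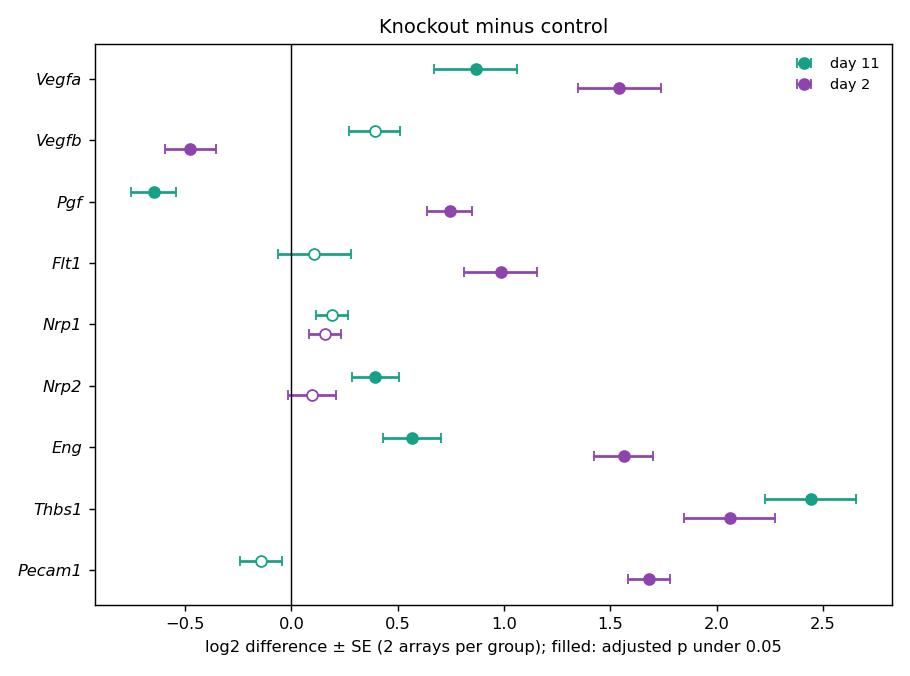
Log2 difference, knockout minus control, of each gene at day 11 (upper point) and day 2 (lower point); bars are standard errors from the fit with 2 arrays per group, and filled points passed the test. Thbs1 has the largest rise of the 9 at both ages, and Pgf, Vegfb and Pecam1 lie on opposite sides of 0 at the 2 ages, Pgf alone with filled points on both sides.

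The 250 bases before and 50 after the annotated starts of these genes are shown for the members whose windows held a searched motif and that were called at day 2, so that the reader can see what stands at the starts of genes that differed. Sequences are those of RefSeq (GRCm38.p6), read 5′ to 3′ in the direction of the gene, and 7 of the 9 genes had an entry, with 9 starts in all. Capitals mark matches, on either strand, to ACGTG (core of the hypoxia response element), AGGTCA (core of sites bound by many nuclear receptors) or GGAAGT (core of sites bound by ETS factors, a family that includes the macrophage factor PU.1). TGANTCA (AP-1) was searched too and matched in none of these windows. Of 32851 windows of this length, 19.6% held ACGTG, 16.3% AGGTCA, 23.8% GGAAGT and 7.81% TGANTCA.
Flt1, chr5:147725962-147726261, minus strand: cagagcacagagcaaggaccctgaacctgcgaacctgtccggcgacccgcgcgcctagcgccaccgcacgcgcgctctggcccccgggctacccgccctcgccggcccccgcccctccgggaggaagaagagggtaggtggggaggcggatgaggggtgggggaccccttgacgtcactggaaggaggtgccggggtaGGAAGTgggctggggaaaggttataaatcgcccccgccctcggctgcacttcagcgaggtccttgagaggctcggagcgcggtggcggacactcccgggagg
Eng, chr2:32646345-32646644, plus strand: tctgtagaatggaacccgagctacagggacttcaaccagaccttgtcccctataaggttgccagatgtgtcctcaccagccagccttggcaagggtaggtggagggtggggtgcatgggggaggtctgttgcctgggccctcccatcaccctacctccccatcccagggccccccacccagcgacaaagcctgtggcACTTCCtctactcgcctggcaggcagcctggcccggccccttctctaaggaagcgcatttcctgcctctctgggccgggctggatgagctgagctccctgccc
Vegfa, second start, chr17:46025114-46025413, minus strand: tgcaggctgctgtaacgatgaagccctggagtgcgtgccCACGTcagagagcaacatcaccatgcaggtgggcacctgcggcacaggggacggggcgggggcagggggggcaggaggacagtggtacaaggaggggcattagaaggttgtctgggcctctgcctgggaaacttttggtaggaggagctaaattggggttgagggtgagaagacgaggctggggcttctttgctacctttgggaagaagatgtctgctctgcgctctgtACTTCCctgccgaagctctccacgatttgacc
Vegfb, chr19:6987602-6987901, minus strand: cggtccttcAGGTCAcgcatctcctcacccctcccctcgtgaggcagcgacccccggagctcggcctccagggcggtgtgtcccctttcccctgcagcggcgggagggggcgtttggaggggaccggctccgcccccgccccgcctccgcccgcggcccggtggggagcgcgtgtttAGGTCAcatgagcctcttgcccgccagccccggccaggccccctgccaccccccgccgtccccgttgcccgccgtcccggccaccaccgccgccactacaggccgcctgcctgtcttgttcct

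The GGAAGT match began 52 bases before the start of Flt1 and, on the opposite strand, 53 bases before that of Eng. The second Vegfa start had ACGTG on the opposite strand, beginning 211 bases before it, and GGAAGT on the opposite strand at base 19 after it. This start lies downstream of the first (window at 46032328 to 46032627, minus strand), so its ACGTG match does not stand before the gene's first start. The first Vegfa start and both starts of Pgf held none of the motifs. Vegfb had 2 AGGTCA matches on its own strand, beginning 241 and 73 bases before the start, and Nrp1, which was not called with genotype at either age, had 1 on the opposite strand, 246 bases before its start. These matches describe letters and show no binding.

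Among the ligands, Vegfa, the main driver of vessel growth, read 8.44 and 7.92 in day 11 knockouts, against 7.17 and 7.45 in day 11 controls. At day 2 it read 10.06 and 9.71 in knockouts, against 8.47 and 8.21 in controls. Knockout arrays lay above control arrays at both ages, without overlap. The rise in Vegfa was 0.87 ± 0.20 (SE, n = 2 arrays per group) or 1.82-fold at day 11 (limma adjusted p = 0.0174) and 1.54 ± 0.20 or 2.91-fold at day 2 (limma adjusted p = 0.00108). The day 11 call was lost without control replicate 1 (adjusted p = 0.123) and without knockout replicate 1 (0.0866). The 2 rises did not pass the test of their difference (-0.67 ± 0.28, limma adjusted p = 0.271). In the order of group levels, the day 2 knockouts came first, and day 11 knockouts and day 2 controls, next to each other, overlapped (difference -0.17, adjusted p = 0.604).

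Placental growth factor (Pgf), which binds FLT1 and not the receptor encoded by Kdr, differed with genotype in opposite directions at the 2 ages, with a call at each. Its signal was 4.71 and 4.90 in day 11 knockouts, against 5.46 and 5.44 in day 11 controls, and 6.67 and 6.40 in day 2 knockouts, against 5.86 and 5.72 in day 2 controls. Day 11 knockouts were thus the lowest group and day 2 knockouts the highest, and no 2 groups overlapped. Pgf fell by 0.65 ± 0.11 (1.57-fold lower) in knockouts at day 11 (limma adjusted p = 0.0041) and rose by 0.74 ± 0.11 (1.67-fold higher) at day 2 (limma adjusted p = 0.00193). The difference between the 2 effects was -1.39 ± 0.15 (limma adjusted p = 0.00379) and kept its call in each of 14 alternatives. In controls the signal at both ages lay close to the array median of 5.35, and in day 11 knockouts it lay below. Whether it is above background in these groups cannot be read from these files, and the day 11 fall lies between such levels.

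Vegfb, a ligand of FLT1 tied to fatty acid handling in other tissues, ran the other way. Its signal was 8.80 and 8.61 in day 11 knockouts, against 8.29 and 8.34 in day 11 controls, and 7.75 and 8.11 in day 2 knockouts, against 8.36 and 8.45 in day 2 controls. The groups did not overlap at either age. The difference was 0.39 ± 0.12 at day 11 (limma adjusted p = 0.061), and Vegfb fell by 0.48 ± 0.12 at day 2 (1.39-fold lower, limma adjusted p = 0.0272). With low-mean genes left out or with a trend and robust prior, Vegfb passed at day 11 (limma adjusted p = 0.0453 and 0.0401). With the compared arrays alone, Vegfb passed at day 11 (limma adjusted p = 0.0255) and lost its day 2 call (0.071). Its day 2 call was lost without control replicate 1, control replicate 2 or knockout replicate 1 (adjusted p from 0.0841 to 0.148), and it passed at day 11 without either day 2 knockout (0.0133). The difference between ages was 0.87 ± 0.17 (limma adjusted p = 0.0391) and was lost without any single control array or day 11 knockout array. In the order of group levels, no neighbouring groups of Vegfb differed past the threshold (adjusted p from 0.0587 to 0.717).

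Of the receptors, Flt1 read 8.84 and 9.40 in day 11 knockouts, against 9.05 and 8.98 in day 11 controls, and the groups overlapped. It read 8.82 and 9.10 in day 2 knockouts, against 8.03 and 7.92 in day 2 controls, so the day 2 controls lay below the other 3 groups, which overlapped. Flt1 differed by 0.11 ± 0.17 at day 11 (limma adjusted p = 0.771) and rose by 0.98 ± 0.17 (1.98-fold) at day 2 (limma adjusted p = 0.00524). The difference between ages was -0.88 ± 0.24 (limma adjusted p = 0.117), and it passed the threshold without knockout day 11 replicate 2 (-1.16, adjusted p = 0.0189), the array with the highest Flt1 signal of the 8.

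Neuropilin 1 and 2 were the steadiest of the 9, with 4 group means of Nrp1 within 0.57 and of Nrp2 within 0.40 log2 units. Nrp1 read 9.43 and 9.46 in day 11 knockouts, against 9.26 and 9.24 in day 11 controls, and 9.11 and 8.95 in day 2 knockouts, against 8.81 and 8.94 in day 2 controls. Its genotype differences were 0.19 ± 0.08 at day 11 and 0.16 ± 0.08 at day 2 (limma adjusted p = 0.133 and 0.208). Nrp2 read 9.71 and 9.67 in day 11 knockouts, against 9.25 and 9.34 in day 11 controls, and 9.57 and 9.21 in day 2 knockouts, against 9.34 and 9.25 in day 2 controls. Nrp2 rose by 0.40 ± 0.11 at day 11 (limma adjusted p = 0.0449) and differed by 0.10 ± 0.11 at day 2, where the groups overlapped (limma adjusted p = 0.63). The day 11 call of Nrp2 was lost without any array of that age (adjusted p from 0.109 to 0.217) and without either day 2 control (0.0739).

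Endoglin (Eng), the co-receptor that shapes BMP and TGF-β signals, read 6.96 and 6.53 in day 11 knockouts, against 6.12 and 6.24 in day 11 controls. At day 2 it read 7.53 and 7.43 in knockouts, against 6.01 and 5.82 in controls. Both knockout groups lay above both control groups with no overlap. Eng rose by 0.57 ± 0.14 (1.48-fold) at day 11 (limma adjusted p = 0.0246) and by 1.56 ± 0.14 (2.95-fold) at day 2 (limma adjusted p = 0.000188). The day 11 call was lost without control replicate 1 (0.145), control replicate 2 (0.0741) or knockout replicate 1 (0.0875). The difference between the ages, -0.996 ± 0.20 (limma adjusted p = 0.0391), was lost without any single control array (0.104 to 0.147) or without knockout day 2 replicate 1 (0.0894). The 2 control groups, lowest in the order, did not differ past the threshold (adjusted p = 0.331).

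Thrombospondin 1 (Thbs1), a secreted inhibitor of vessel growth that binds CD36 and CD47, had the widest range of the 9, its group means spanning 4.76 log2 units. It read 10.28 and 9.63 in day 11 knockouts, against 7.35 and 7.67 in day 11 controls. At day 2 it read 12.27 on both knockout arrays, against 10.39 and 10.03 in controls. Thbs1 rose by 2.44 ± 0.21 (5.43-fold) at day 11 (limma adjusted p = 0.000188) and by 2.06 ± 0.21 (4.17-fold) at day 2 (limma adjusted p = 0.00041), calls kept in each of 15 alternatives. The 2 rises did not pass the test of their difference (0.38 ± 0.30, adjusted p = 0.589). Day 11 knockouts and day 2 controls overlapped (-0.26, adjusted p = 0.448), but differed past the threshold without the 3 pools of one sex (adjusted p = 0.0476). Its receptor gene Cd47 moved the opposite way, having fallen by 0.66 ± 0.07 at day 11 (adjusted p = 0.000361) and by 0.53 ± 0.07 at day 2 (adjusted p = 0.000995).

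Pecam1, which encodes an adhesion protein of cell contacts and of leukocyte passage through vessel walls, stood out in a single group. It read 5.40 and 5.64 in day 11 knockouts, against 5.56 and 5.77 in day 11 controls, and 7.41 and 7.44 in day 2 knockouts, against 5.73 and 5.75 in day 2 controls. Day 2 knockouts lay above the other 3 groups, which ran together near the array median (neighbours in the order differed with adjusted p of 0.716 and 0.419). Pecam1 differed by -0.14 ± 0.10 at day 11 (limma adjusted p = 0.419) and rose by 1.68 ± 0.10 (3.21-fold) at day 2 (limma adjusted p = 2.98e-05). The difference between ages was -1.82 ± 0.14 (limma adjusted p = 0.000841) and kept its call in each of 14 alternatives.

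With age, Vegfa and Thbs1 fell in both genotypes, while Pgf, Pecam1 and Eng fell in knockouts. These comparisons use the same arrays as those of genotype and are no independent evidence. In knockouts, 7 of 9 genes were called between day 11 and day 2 (2 higher and 5 lower at day 11), where 15.5% of all genes were called, 8.81% higher and 6.71% lower. In controls 4 of 9 were called, 2 each way, where 5.3% of all genes were called, 2.81% higher and 2.49% lower. The interaction of genotype and age was called for 4 of 9, Vegfb above 0 and Pgf, Eng and Pecam1 below, where 3.27% of all genes were called, 1.29% above and 1.99% below. Between unlike genotypes and ages, 5 of 9 were called in day 11 knockouts against day 2 controls and 5 of 9 in day 2 knockouts against day 11 controls, where 25.6% and 22.3% of all genes were called. Vegfa fell by 1.71 ± 0.20 in knockouts (adjusted p = 0.00149) and by 1.03 ± 0.20 in controls (adjusted p = 0.0257), while Thbs1 fell by 2.32 ± 0.21 in knockouts and fell by 2.70 ± 0.21 in controls (adjusted p = 0.000553 and 0.000682). Pgf fell by 1.73 ± 0.11 in knockouts, Pecam1 by 1.90 ± 0.10 and Eng by 0.73 ± 0.14 (adjusted p = 9.02e-05, 4.33e-05 and 0.0111). In controls these 3 differed by -0.34, -0.08 and 0.26 (adjusted p = 0.115, 0.716 and 0.331).

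Among genes higher at day 11, Nrp1 rose by 0.41 ± 0.08 in knockouts (adjusted p = 0.00992) and by 0.38 ± 0.08 in controls (adjusted p = 0.0311). Vegfb rose by 0.77 ± 0.12 in knockouts (adjusted p = 0.00522) and differed by -0.10 ± 0.12 in controls (adjusted p = 0.717). Flt1 differed by 0.16 ± 0.17 in knockouts (adjusted p = 0.63) and rose by 1.04 ± 0.17, or 2.05-fold, in controls (adjusted p = 0.0158). Without any one of the 4 control arrays, Vegfa, Flt1 and Nrp1 lost their calls in controls and 1 of the 9, Thbs1, remained called. In knockouts, Nrp1 lost its call without day 11 replicate 2 (0.0567) and Eng without day 2 replicate 1 (0.0552).

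**Figure D3:**
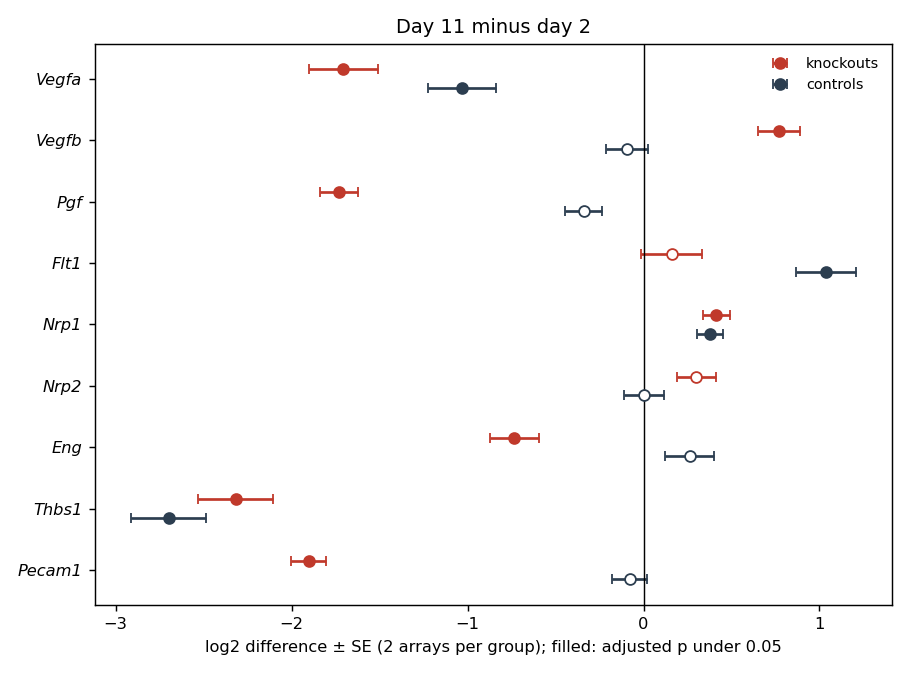
Log2 difference, day 11 minus day 2, of each gene in knockouts (upper point) and controls (lower point); bars are standard errors from the fit with 2 arrays per group, and filled points passed the test. Thbs1 lies furthest to the left in both genotypes, and Pgf and Pecam1 lie far below 0 in knockouts and near 0 in controls.

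The rest of the pathway was read from 7 lists, some of which also hold members of the 9. The list counts are descriptions, to be read against the 9.34% of all genes higher and 9.29% lower in knockouts at day 11, and the 8.86% higher and 11.2% lower at day 2. Of 10 VEGF ligands and receptors, 2 rose and 1 fell in knockouts at day 11, and 4 rose and 1 fell at day 2, with medians of 0.22 and 0.24. The 4 not among the 9 were Vegfc, Vegfd, Flt4 and Kdr, and of these Kdr, which encodes the main VEGF-A receptor of endothelium, was called at day 2. Kdr read 5.45 and 5.10 in day 11 knockouts, against 5.04 and 4.97 in day 11 controls, and 7.36 and 5.85 in day 2 knockouts, against 4.91 and 4.92 in day 2 controls. Its day 2 rise of 1.69 ± 0.40 (limma adjusted p = 0.0206) was uneven between the 2 knockout pools, and the call was lost without control day 2 replicate 1 (0.0971) or replicate 2 (0.102). Vegfc, Vegfd and Flt4 read between 4.03 and 5.23 on all arrays and were not called at either age.

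Of 33 other angiogenic ligands and proteases, 8 rose and 5 fell at day 11, and 10 rose and 2 fell at day 2, with medians of 0.09 and 0.10. Mmp12, the macrophage elastase, rose by 2.36 ± 0.13 at day 11 and 3.68 ± 0.13 at day 2, and Plau, the urokinase that activates plasminogen, by 2.24 ± 0.10 and 2.10 ± 0.10. Hbegf, an EGF receptor ligand, rose by 1.66 ± 0.29 and 2.46 ± 0.29. For Ptgs2, which encodes the cyclooxygenase of inflammation, the rises were 3.02 ± 0.16 and 3.18 ± 0.16. The largest fall at both ages was that of Angptl4, a PPAR target that inhibits lipoprotein lipase, by 1.65 ± 0.13 and 1.87 ± 0.13. These genes kept their calls without any single array.

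Among 22 angiogenesis inhibitors, 6 rose and 3 fell at day 11, and 7 rose and 3 fell at day 2, with medians of 0.01 and 0.03. Beside Thbs1, Timp2, an inhibitor of matrix metalloproteases, rose by 2.35 ± 0.14 and 2.20 ± 0.14. The 3 that fell were the thrombospondin receptor genes Cd36 and Cd47 and the matrix protein gene Sparc, at both ages. Cd36 fell by 0.32 ± 0.09 at day 11, a call lost without control replicate 1 (0.136), control replicate 2 (0.16), knockout replicate 2 (0.189) or either day 2 control (0.0621), and by 0.69 ± 0.09 at day 2. Sparc fell by 0.72 ± 0.12 and 0.61 ± 0.12, the day 2 call being lost without control replicate 2 (0.0513).

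The list of neuropilin partners held 11 plexin, semaphorin and other genes, and a place in it does not show that a gene's product acts through neuropilins. Of these, 6 rose and 1 fell at day 11, and 5 rose and 1 fell at day 2. Their medians were 0.41 and 0.18. The semaphorin receptor genes Plxnb2 and Plxna1 rose by 1.35 ± 0.07 and 1.26 ± 0.09 at day 11 and by 1.06 ± 0.07 and 1.06 ± 0.09 at day 2. The gene that fell was Sema3e, a ligand of plexin D1, which read 4.78 and 5.06 in day 11 knockouts, against 7.09 and 6.89 in day 11 controls, and 4.59 and 4.71 in day 2 knockouts, against 6.46 and 6.41 in day 2 controls. Sema3e fell by 2.07 ± 0.11 at day 11 and by 1.79 ± 0.11 at day 2 (limma adjusted p = 1.87e-05 and 3.03e-05).

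Signalling beside endoglin showed small differences in both directions. Of 16 genes of BMP and TGF-β receptors and the ALK1 pathway, Eng among them, 2 rose and 3 fell at day 11. At day 2, 4 rose and 3 fell, and the medians were -0.06 and 0.03. Without Eng, 1 of 15 rose and 3 fell at day 11, and 3 rose and 3 fell at day 2. The medians of these 15 were -0.10 and 0.02. Id1, a direct BMP target, fell by 0.72 ± 0.08 at day 11 and 0.74 ± 0.08 at day 2, and Smad1, which carries the BMP signal, by 0.53 ± 0.09 and 0.52 ± 0.09. Of 14 genes of leukocyte transmigration and PECAM signalling, 3 rose at day 11 and 4 at day 2, and none fell, with medians of -0.05 and 0.15. Without Pecam1, 3 of 13 rose and none fell at each age, where 9.34% of all genes were higher at day 11 and 8.86% at day 2. In either direction, 18.6% and 20.1% of all genes were called, so only the count without regard to direction is near that of all genes. Cd99l2, an adhesion gene of leukocyte passage, rose by 0.99 ± 0.10 and 0.52 ± 0.10, and Itga5, a chain of the fibronectin receptor, by 0.71 ± 0.08 and 0.55 ± 0.08. The day 2 call of Cd99l2 was lost without control replicate 2 (0.0624).

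Genes of the response to low oxygen, a known inducer of Vegfa, were called in both directions. Of 29, 6 rose and 2 fell at day 11, and 7 rose and 3 fell at day 2, with medians of 0.08 and 0.13. Of all genes, 9.34% were higher and 9.29% lower at day 11, and 8.86% were higher and 11.2% lower at day 2. In either direction, 18.6% and 20.1% of all genes were called. Slc2a1, a glucose transporter, rose by 1.06 ± 0.12 and 0.64 ± 0.12, and Ndrg1, a stress-induced gene, by 0.95 ± 0.13 and 1.07 ± 0.13. The kinase gene Pdk1 fell by 0.98 ± 0.08 and 1.12 ± 0.08, and Egln3, a sensor of oxygen, by 0.69 ± 0.15 and 1.83 ± 0.15. Of the genes named here, Slc2a1 lost its day 2 call without control replicate 2. Egln3 lost its day 11 call without control replicate 1, control replicate 2 or knockout replicate 2. In the rest of the list, Bnip3l, Car9, Hif1a and P4ha1 lost day 2 calls without some single array. So did Epas1 and Ero1a at day 11.

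**Figure D4:**
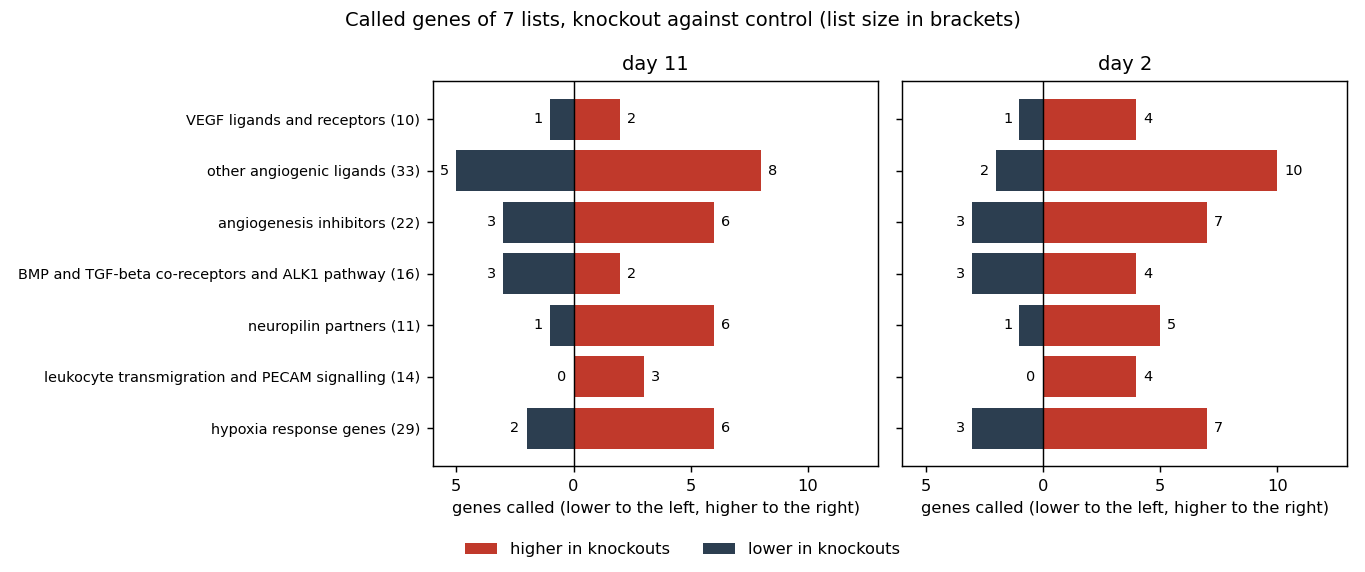
Number of genes called per list (x axis), knockout against control, at day 11 (left) and day 2 (right); bars to the right count genes higher in knockouts, bars to the left genes lower, and brackets give the genes measured. The list of other angiogenic ligands, the longest of the 7, has 13 called genes at day 11 and 12 at day 2.

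Since Pecam1, Eng and Flt1 are also genes of other cells, marker lists without the 9 genes were read on each array. The mean signal of 27 endothelial markers was 5.38 and 5.42 in day 11 knockouts, against 5.44 and 5.45 in day 11 controls, and 5.47 and 5.48 in day 2 knockouts, against 5.39 and 5.49 in day 2 controls. The groups differed by less than 0.1 in this mean, and the marker genes Tie1 and Tek read from 5.35 to 5.59 and from 4.49 to 4.79 on all arrays, near or below the array median, with no call at either age. The 2 endothelial genes called higher in day 2 knockouts were Cdh5 and Kdr. Cdh5 rose by 0.49 ± 0.07 (limma adjusted p = 0.00191) and Kdr by the 1.69 given above. At that age 3 others of the list were called lower. Plvap and Adgrl4 were among these, with calls lost without any single day 2 array. Of the 27, 1 rose and 2 fell at day 11, and 2 rose and 3 fell at day 2, a share near the 20.1% of all genes called at day 2 and below the 18.6% at day 11.

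Markers of platelets, monocytes, neutrophils and dendritic cells were higher in day 2 knockouts, the group with the highest Pecam1, Eng, Pgf, Vegfa and Thbs1. The mean of 8 platelet and megakaryocyte markers was 5.58 and 5.55 in day 11 knockouts, 5.44 and 5.33 in day 11 controls, 6.11 and 5.84 in day 2 knockouts, and 5.26 and 5.33 in day 2 controls. Of these 8, 1 rose and 1 fell at day 11, and 5 rose and none fell at day 2, the platelet chemokine gene Pf4 by 1.77 ± 0.26. For 13 monocyte markers the mean was 7.45 and 7.28 in day 11 knockouts, 7.42 on both arrays of day 11 controls, 9.33 and 8.98 in day 2 knockouts, and 7.73 and 7.72 in day 2 controls. Of these 13, 4 rose and 4 fell at day 11, and 9 rose and none fell at day 2. For 15 neutrophil markers it was 5.75 and 5.54 in day 11 knockouts, 5.42 and 5.34 in day 11 controls, 6.72 and 6.59 in day 2 knockouts, and 5.28 and 5.36 in day 2 controls. Of these 15, 2 rose and 2 fell at day 11, and 10 rose and 1 fell at day 2. For 14 dendritic cell markers it was 5.99 and 6.27 in day 11 knockouts, 5.97 and 6.13 in day 11 controls, 6.80 on both arrays of day 2 knockouts, and 5.62 and 5.66 in day 2 controls. Of these 14, 2 rose and 2 fell at day 11, and 8 rose and none fell at day 2. Of all genes, 9.34% were higher and 9.29% lower at day 11, and 8.86% were higher and 11.2% lower at day 2. In each of these lists, some day 2 calls were lost when a single array was left out. Among them were those of the platelet genes Clec1b and Tubb1 and the monocyte genes Ms4a4c and Vcan. The neutrophil gene Cxcr2 and the dendritic cell genes Ccl17 and Klrd1 also lost theirs. The part of these cells in the results was not tested, and in sorted pools a larger share of cells of a type and more RNA per cell cannot be told apart.

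Markers of alveolar epithelium, another known source of VEGF-A, had a mean over 18 genes of 6.62 and 6.58 in day 11 knockouts, 6.52 and 6.62 in day 11 controls, 6.78 and 7.04 in day 2 knockouts, and 6.71 and 6.66 in day 2 controls. Of them 3 rose and 4 fell at day 11, and 3 rose and 1 fell at day 2. Of 14 fibroblast and smooth muscle markers, 1 rose and 1 fell at day 11 and none was called at day 2 (list mean 5.05 to 5.23 on all arrays). Of 14 markers of T, NK and B cells, 2 rose and 2 fell at day 11 and 1 rose at day 2 (list mean 4.43 to 4.69). Of the 18 alveolar macrophage markers, 2 rose and 10 fell at day 11, and 2 rose and 13 fell at day 2. The counts of these 4 lists stand beside 9.34% of all genes higher and 9.29% lower at day 11. At day 2 the shares of all genes were 8.86% higher and 11.2% lower.

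**Figure D5:**
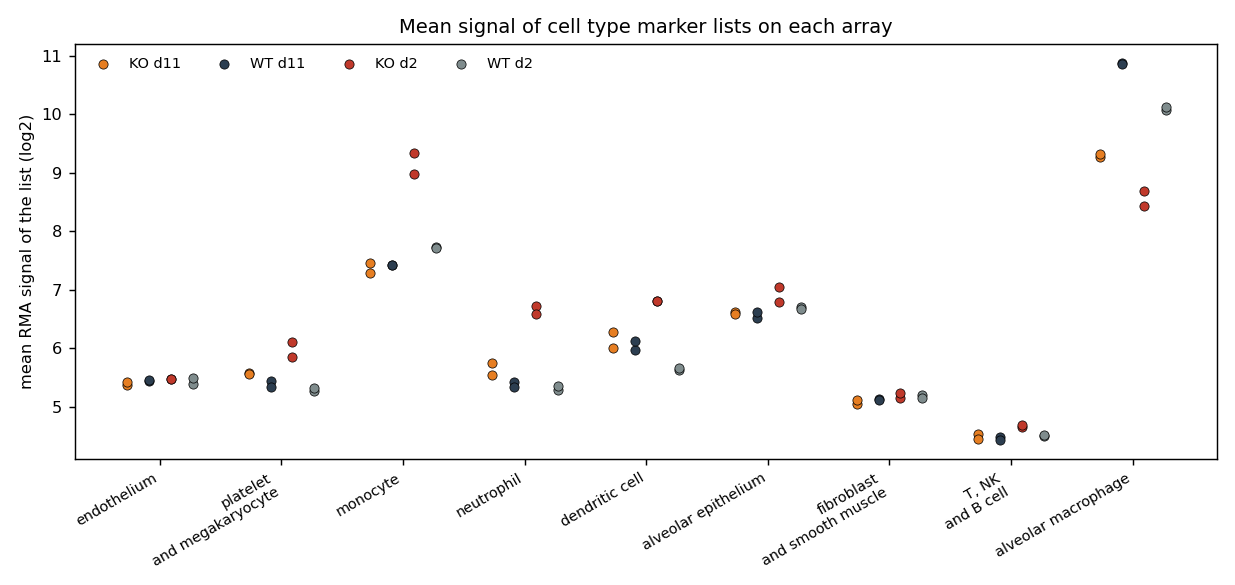
Mean log2 RMA signal of each cell type marker list (y axis) on each array, with 1 point per array and the groups in the order day 11 knockouts, day 11 controls, day 2 knockouts and day 2 controls. Monocyte, neutrophil, dendritic cell, platelet, alveolar epithelium and T, NK and B cell lists stand highest in day 2 knockouts, the alveolar macrophage list stands lowest there, and the endothelial list is level between 5.38 and 5.49.

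For the 6 genes whose group means spanned at least 1 log2 unit, the genes most like them were sought by the root mean square difference over the 8 arrays, after each gene's own mean was taken off, among 16374 genes with a proper symbol. Closest to Vegfa were Stx11, Hp and Ms4a6c (0.17, 0.18 and 0.18 log2 units), and to Thbs1 the monocyte receptor gene Ccr2, Adgre5 and Met (0.40, 0.46 and 0.50). Pgf was nearest to Krt80, Cd34 and Cd300lg (0.13, 0.15 and 0.17), and Flt1 to Klhl33, Rasgef1b and Wdr44 (0.13, 0.19 and 0.19). Eng lay nearest to Tmem243, Antxr2 and Crem (0.15, 0.16 and 0.17). The nearest of Pecam1 were Ciita, the master activator of MHC class II genes, Igfbp4 and Smad3 (0.14, 0.16 and 0.18). Ciita read 4.98 and 5.17 in day 11 knockouts, against 5.04 and 5.16 in day 11 controls. At day 2 it read 6.61 and 6.58 in knockouts, against 5.06 and 5.09 in controls. As for Pecam1, a single group stood above the others, which follows from the search, since Ciita was picked for this likeness.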

How the data were processed

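The deposited table holds log2 values of 28874 probe sets on 8 arrays. RMA, run by the authors with R 2.15.2 as the submitters' processing notes list it, corrects for background, brings arrays to a common distribution and combines each set's probes. Of the probe sets, 21159 had a single symbol in the platform annotation, 1881 several and 5834 none; symbols were updated through Entrez identifiers to those of RefSeq. For 1368 genes with several probe sets the one with the highest mean was used, leaving 18782 genes.

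Limma 3.58.1 in R 4.3.3 was fitted with 1 mean per group over all 8 arrays (4 residual and 3.77 prior degrees of freedom), with contrasts of genotype at each age, of age in each genotype, of their interaction and of the remaining pairs of groups. Adjusted p-values are limma's after Benjamini-Hochberg adjustment over all genes, and errors are standard errors of the log2 difference. The fit was tested on simulated data. With 2 pools per group the number of arrays limits the precision, and p-values measure the spread between these pools. Figures used matplotlib 3.10.9 in Python 3.11.15.

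The 9 genes and the 16 lists were chosen with earlier results of these data known. Of 296 list entries, 19 matched no gene tested. Named are all 9 genes, the members of each list with the largest called differences (up to 4 each way), the defining markers and, for each gene spanning at least 1 log2 unit, its 3 most similar genes. Alternatives were all probe sets, a filter on low means, a trend and robust prior, the compared arrays alone, the mean of probe sets, a replicate block and leaving out each array; leaving out the 3 pools of one sex was added after seeing the data.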

Additional observations from a re-analysis of the deposited data

Results flagged for a closer look

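The genotype difference, knockout minus control, differed between day 11 and day 2 by the interaction test for 4 of the 9 genes, where 3.27% of all 18782 genes passed that test. Pecam1 differed by -0.14 at day 11 and 1.68 at day 2, an interaction of -1.82 ± 0.14. Pgf differed by -0.65 at day 11 and 0.74 at day 2, an interaction of -1.39 ± 0.15. Eng differed by 0.57 at day 11 and 1.56 at day 2, an interaction of -0.996 ± 0.20. Vegfb differed by 0.39 at day 11 and -0.48 at day 2, an interaction of 0.87 ± 0.17. The limma adjusted p was 0.000841 for Pecam1, 0.00379 for Pgf and 0.0391 for both Eng and Vegfb. Across the alternatives it ran from 0.000186 to 0.0323 for Pecam1, 0.00108 to 0.0381 for Pgf, 0.0106 to 0.147 for Eng and 0.00536 to 0.163 for Vegfb.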

How the results depend on the processing

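Of 936 values of the 9 genes under the alternatives, 846 kept their sign and their side of the threshold, 59 lost a call, 15 gained one and 16 changed sign. No call of Pgf, Pecam1 or Thbs1 between genotypes, and none of Vegfa, Flt1 or Eng at day 2, was lost. Leaving out each array in turn, the genes called ran from 2059 to 3760 for genotype at day 11 (2 to 6 of the 9 genes), 2223 to 3605 at day 2 (6 to 7), 1541 to 2985 for age in knockouts (6 to 7), 233 to 1292 for age in controls (1 to 4), 197 to 942 for the interaction (2 to 4), 2948 to 5063 for day 11 knockouts against day 2 controls (4 to 6) and 2569 to 4086 for day 2 knockouts against day 11 controls (5 to 6). These fits hold fewer arrays. Without the 3 pools of one sex, where 1 array is left in 3 groups and is assumed to vary like the day 11 controls, the genes called were 2044 at day 2, 1090 for age in knockouts, 525 for age in controls, 222 for the interaction (2 of the 9) and 2733 for day 11 knockouts against day 2 controls. In that fit Flt1 passed at day 11 (0.39, adjusted p = 0.0465) and Thbs1 passed for day 11 knockouts against day 2 controls (-0.763, adjusted p = 0.0476). With the compared arrays alone, the age counts were 1466 in knockouts and 1581 in controls. With all probe sets tested, 2 of the 9 passed the interaction. The cause of these shifts was not tested.

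Sign changes concerned values that passed no test with all arrays. The pools of one sex left out turned Nrp2 to -0.127 at day 2, -0.044 with age in controls and -0.083 for day 2 knockouts against day 11 controls, where Flt1 turned to 0.085. Over the fits that leave out 1 array, Nrp2 ran from -0.081 to 0.274 at day 2, from -0.046 to 0.05 with age in controls and from -0.083 to 0.272 for day 2 knockouts against day 11 controls. Flt1 ran from -0.175 to 0.388 at day 11, from -0.1215 to 0.4415 with age in knockouts and from -0.192 to 0.085 for day 2 knockouts against day 11 controls. Pecam1 ran from -0.1875 to 0.0285 with age in controls, and the interaction of Nrp1 from -0.0395 to 0.1115. For day 11 knockouts against day 2 controls, Vegfa ran from -0.4245 to 0.0945 and Thbs1 from -0.583 to 0.07.

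The labels do not say that replicate numbers mark a shared litter or day, and the deviations of same-numbered arrays from their group means correlated with r from -0.08 to 0.25 over genes. With the replicate block, 3415 genes were called for genotype at day 11 (5 of the 9) and 3692 at day 2 (7 of the 9), so the block moved no count by over 1.5 times.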

Other observations

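Mmp14, a membrane-bound matrix protease of the angiogenic ligand and protease list, split the day 11 knockout pools. It read 8.82 and 5.28 in day 11 knockouts, against 4.93 and 5.02 in day 11 controls, and 9.75 and 8.48 in day 2 knockouts, against 6.17 and 5.33 in day 2 controls. Its day 2 difference of 3.36 ± 0.98 (limma adjusted p = 0.047) lost its call without any single day 2 array or without either day 11 control (adjusted p from 0.0577 to 0.218). Mmp9, a gelatinase that also stands in the neutrophil marker list, had an interaction of -1.77 ± 0.18 (limma adjusted p = 0.00333) and kept it without any single array.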
